A study of Oryza sativa with 6 samples.

Results

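Metallothioneins (MTs) are small, cysteine-rich proteins that bind metal ions through the thiol groups of their cysteines. Plants sort them by the arrangement of those cysteines, into types 1, 2, 3 and 4 of class I as the study counts them and a class II that holds the EC proteins, first known from wheat embryos. MTs are known for buffering zinc and copper, for binding non-essential metals such as cadmium, and for scavenging reactive oxygen species, and plant MT genes of different types are often expressed in different organs. The genes described here are the MT genes of rice (Oryza sativa) that do not lie on chromosomes 11 and 12, taken from the list of MT genes the study compiled. They were 7 of the 29690 loci on the array and were covered by 25 of its 41908 probes with a locus name. They comprise the type 1 gene OsMT1-1b (Os03g0288000, chromosome 3), the type 2 genes OsMT1-2a (Os01g0149800, chromosome 1), OsMT1-2b (Os01g0974200, chromosome 1) and OsMT1-2c (Os05g0111300, chromosome 5), the type 3 genes OsMT1-3a (Os01g0200700, chromosome 1) and OsMT1-3b (Os05g0202800, chromosome 5), and the class II gene OsMT-II-1a (Os10g0542100, chromosome 10). The chromosome is the one in the locus name, and no genome sequence or probe sequence was used here.

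Hg-treated roots of 6-day-old seedlings of the rice cultivar TN-67 were compared with roots of seedlings given water (control). The labels state the Hg dose as 25 mM, whereas the methods give it in µM with the same figure. Long-term exposure was 24 h, and short-term exposure was a pool of RNA from 1 h and 3 h. Each exposure had 3 biological replicates, and each replicate was a 2-colour array. Hg-treated RNA always carried Cy5 and control RNA Cy3, so that dye and treatment cannot be told apart. The sources do not say if a single control RNA served both exposures. The RNA came from root tips per the study's methods, and fewer expressing cells and less transcript per cell cannot be told apart in such samples. The measure used throughout is the log2 ratio of Hg over control on an array. A gene is given by its brightest probe, which here means the probe with the highest mean log2 signal over both channels and all 6 arrays.

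The 3 long-term arrays were scanned on 1 slide of their own, whereas short-term replicate 1 lay on another slide and short-term replicates 2 and 3 on the remaining one, so that slide and exposure cannot be told apart. The log2 ratios over all genes correlated at 0.885 to 0.929 among the long-term arrays, at 0.911 to 0.918 among the short-term arrays and at 0.376 to 0.501 between exposures. Spots well above background in the Hg channel numbered 33928 to 34927 on the long-term and 29106 to 34215 on the short-term arrays, and in the control channel 33840 to 34265 and 28674 to 33846. Among 4 root genes, the root-specific RCc3 and the silicon transporter genes Lsi1 and Lsi2 were well above background in the control channel of all 6 arrays and the nitrate transporter gene OsNRT2.1 on none. The log2 ratio of Lsi1 was 1.83 at long-term exposure (adjusted p = 0.000718 in limma) and -1.51 at short-term exposure (adjusted p = 0.00114), that of Lsi2 was 0.86 (adjusted p = 0.00696) and -1.20 (adjusted p = 0.00148), and that of RCc3 was -0.22 and 0.21 (adjusted p = 0.25 and 0.259). The summed signal of the 4 root genes was 230348 to 249126 in the Hg and 184369 to 237886 in the control channel of the long-term arrays, and 114672 to 245780 and 93821 to 278992 on the short-term arrays. Among 5 shoot genes of photosynthesis, the chlorophyll a/b-binding protein gene Os03g0592500 was well above background on all 6 arrays with signals of 2102 to 4180 in the Hg and 2053 to 3917 in the control channel, and the control signals of the remaining 4 reached at most 274. Another gene of this family, Os01g0600900, had signals of 29.2 to 73.7 in the Hg channel, where it was well above background on 5 arrays, and of 6.06 to 11.7 in the control channel, where it was so on 0. The summed signal of the 5 shoot genes was 2944 to 3687 in the Hg and 2237 to 2747 in the control channel of the long-term arrays, and 2273 to 4433 and 2219 to 4108 on the short-term arrays. The part of these marker genes' tissues in the results on MT genes was not tested. No spot was saturated in these files.

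At long-term exposure the type 2 genes stood apart from the other MT genes outside chromosomes 11 and 12. OsMT1-2a, OsMT1-2b and OsMT1-2c were upregulated 6.96-fold, 7.68-fold and 4.75-fold, whereas the genes of types 1 and 3 and of class II differed less than 2-fold. A gene was called when its adjusted p in limma was under 0.05 and its mean differed at least 2-fold. By this rule 3 of 7 MT genes were upregulated and 0 were downregulated at long-term exposure, where 8.98% of all genes tested were called up and 6.02% down. At short-term exposure 0 of 7 were upregulated and 0 downregulated in limma, where 11.6% and 8.08% of all genes tested were called in these directions. At an unadjusted p under 0.05, without regard to fold, limma put 5 of the 7 higher and 0 lower at long-term exposure, and 2 higher and 1 lower at short-term exposure. By that rule 30.4% of all genes tested were higher and 37.5% lower at long-term exposure, and 28.8% and 42.9% at short-term exposure. The methods' t-test called 0 of the 7 at short-term exposure in either direction, where it called 4.89% of all genes tested up and 2.69% down. At long-term exposure it called 1 of the 7, OsMT1-2a, up, where it called 4.20% of all genes tested up and 3.74% down. The median log2 ratio of the 7 genes was 0.79 at long-term exposure, with a range of -0.46 to 2.94, and 0.21 at short-term exposure, with a range of -0.69 to 0.71. Over all genes tested the medians were -0.06 and -0.13.

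**Figure D1:**
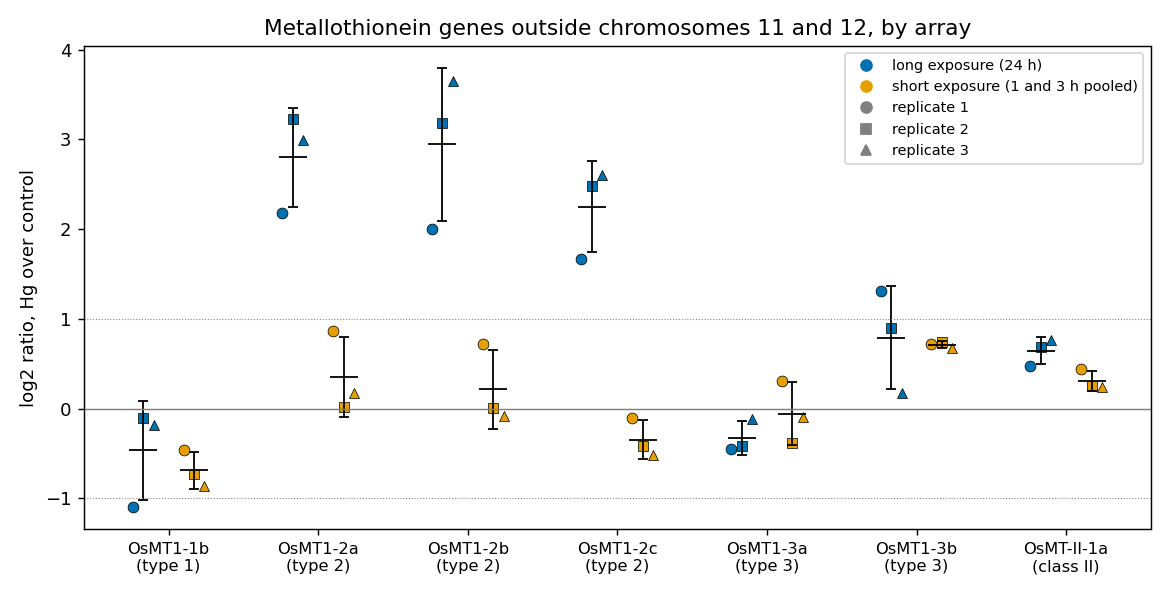
Log2 ratio of Hg over control (vertical axis) on each of the 6 arrays for the 7 MT genes outside chromosomes 11 and 12, each by its brightest probe. Bars give the mean and SD of 3 arrays and dotted lines mark 2-fold; the 3 type 2 genes lie between 1.67 and 3.65 on all long-term arrays and between -0.52 and 0.86 on the short-term arrays.

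The difference between exposures was tested in the same limma fit as long minus short. It passed the same thresholds in 3 of 7 genes, again OsMT1-2a, OsMT1-2b and OsMT1-2c, all higher at long-term exposure, where 9.21% of all genes tested were called in that direction, and 0 of 7 were called lower, against 10.1% of all genes. The differences were 2.45 (SE 0.33, adjusted p = 0.00184) for OsMT1-2a, 2.73 (SE 0.44, adjusted p = 0.00347) for OsMT1-2b and 2.60 (SE 0.26, adjusted p = 0.000726) for OsMT1-2c. For each of these genes the long-term arrays did not overlap the short-term arrays by the brightest probe. The share of all genes without overlap was not counted, so this only describes genes already called in this contrast. The other 4 genes differed by -0.27 to 0.33 between exposures, with adjusted p of 0.0545 to 0.833 in limma.

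By its brightest probe, OsMT1-2b had the highest mean long-term ratio of the 7 genes, although the 95% confidence intervals of the type 2 genes overlapped, at 2.19 to 3.70 for OsMT1-2b, 2.23 to 3.37 for OsMT1-2a and 1.80 to 2.70 for OsMT1-2c. The order of the type 2 genes changed with the probes used, since by the mean of all probes OsMT1-2c had 3.07, OsMT1-2b 2.98 and OsMT1-2a 1.96. The log2 ratios of OsMT1-2b by its brightest probe were 2.00, 3.18 and 3.65 on the long-term arrays, against 0.72, 0.00 and -0.08 on the short-term arrays. Replicate 1 was thus the lowest of the long-term arrays and the highest of the short-term arrays. The mean was 2.94 ± 0.85 at long-term exposure (SD, n = 3 arrays, SE 0.31, adjusted p = 0.000518 in limma), which put the gene at rank 255 from the top of 21842 genes. At short-term exposure it was 0.21 ± 0.44 (SD, n = 3 arrays, adjusted p = 0.568 in limma), with a 95% confidence interval of -0.54 to 0.97. Processed signals of the long-term arrays were 37915, 50591 and 47005 in the Hg channel, against 9510, 5587 and 3741 in the control channel. On the short-term arrays they were 6383, 4093 and 6221 in the Hg channel, against 3887, 4086 and 6577 in the control channel. After quantile normalisation of the average intensities between arrays, the control level of this probe differed by 0.02 (log2) between long-term and short-term exposure and the Hg level by 2.75. The 5 probes of OsMT1-2b, all in the coding sequence and 3′ UTR, gave nearly the same values, with long-term means of 2.94 to 3.03 and short-term means of 0.09 to 0.21. They target 1 transcript and are not independent measurements.

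OsMT1-2c was low at short-term exposure and higher at long-term exposure in the Hg channel of every probe. The probe that stood for it, the only one that reaches into the 5′ UTR, had the highest mean log2 signal, but its highest signal on any array, 4525, was below the highest of each of the other 7 probes, which reached 5107 to 8263. It had log2 ratios of 1.67, 2.48 and 2.60 on the long-term arrays, against -0.10, -0.42 and -0.52 on the short-term arrays. The means were 2.25 ± 0.50 (SD, n = 3 arrays, SE 0.19, adjusted p = 0.000256 in limma) at long-term exposure, rank 511 from the top, and -0.35 ± 0.22 (SD, n = 3 arrays, adjusted p = 0.137 in limma) at short-term exposure, with a 95% confidence interval of -0.80 to 0.10. Signals of this probe on the long-term arrays were 4425, 4525 and 4406 in the Hg channel and 1390, 811 and 729 in the control channel. The Hg signals were thus nearly equal while the control signal of replicate 1 was the highest. On the short-term arrays the signals were 738, 382 and 334 in the Hg channel and 792, 511 and 480 in the control channel.

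The other 7 probes of OsMT1-2c, in the coding sequence and 3′ UTR, gave a larger long-term ratio than the 5′ UTR probe. Their long-term means were 3.15 to 3.22, which is 8.91-fold to 9.34-fold, and their short-term means were -0.47 to -0.15. Long minus short was 3.33 to 3.66 for these probes, against 2.60 for the probe in the 5′ UTR and coding sequence. Their signals on the long-term arrays were 4331 to 8263 in the Hg channel and 348 to 1369 in the control channel, and on the short-term arrays 73.4 to 227 in the Hg channel and 72.5 to 322 in the control channel. The control level of these probes therefore also differed between exposures. After quantile normalisation between arrays it was 1.14 to 1.75 higher (log2) at long-term exposure, which is above 97.4% to 99.6% of all probes tested, against 0.11 for the 5′ UTR probe. The Hg level of the 7 probes was 4.55 to 5.25 higher at long-term exposure and that of the 5′ UTR probe 2.71 higher. Which of the transcript's parts each signal comes from was not tested, since no probe sequence was used here.

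The probes of OsMT1-2a disagreed on the size of the long-term response and on the short-term response. The brighter probe, in the coding sequence and 3′ UTR, had log2 ratios of 2.18, 3.23 and 2.99 on the long-term arrays, against 0.86, 0.02 and 0.18 on the short-term arrays. Its mean was 2.80 ± 0.55 (SD, n = 3 arrays, SE 0.24, adjusted p = 0.000269 in limma) at long-term exposure, rank 299 from the top. At short-term exposure it was 0.35 ± 0.45 (SD, n = 3 arrays, adjusted p = 0.223 in limma), with a 95% confidence interval of -0.22 to 0.92. The signals of this probe on the long-term arrays were 7169, 10629 and 8436 in the Hg channel and 1584, 1135 and 1060 in the control channel. Those of the short-term arrays were 2251, 1872 and 2161 in the Hg channel and 1240, 1852 and 1913 in the control channel. After quantile normalisation between arrays, long minus short was -0.88 (log2) in the control level of this probe and 1.57 in the Hg level. Both channels thus moved with the ratio, by amounts within the following limits over all genes tested. In the control channel 5% of genes were below -1.37 and 5% above 0.95. In the Hg channel 5% were below -2.05 and 5% above 1.65.

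The second probe of OsMT1-2a lies in the UTR and gave 0.69, 1.23 and 1.46 on the long-term arrays, against 1.22, 1.00 and 1.30 on the short-term arrays. Both exposures overlapped on it. Fitted over all probes in limma, it was upregulated at long-term exposure (mean 1.13 ± 0.40, SD, n = 3 arrays, adjusted p = 0.001) and at short-term exposure (mean 1.17 ± 0.16, SD, n = 3 arrays, adjusted p = 0.000658), and long minus short was -0.05 (adjusted p = 0.871). The UTR probe was below the other probe by -1.49, -1.99 and -1.53 on the long-term arrays and above it by 0.35, 0.98 and 1.13 on the short-term arrays. Its signals were 731, 1233 and 1231 in the Hg channel and 454, 525 and 448 in the control channel of the long-term arrays, and 697, 631 and 659 in the Hg channel and 300.2, 316 and 267 in the control channel of the short-term arrays. The short-term result for OsMT1-2a therefore rests on which probe stands for the gene, and with the mean of both probes it was 0.76 (adjusted p = 0.0092 in limma), still under 2-fold.

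**Figure D2:**
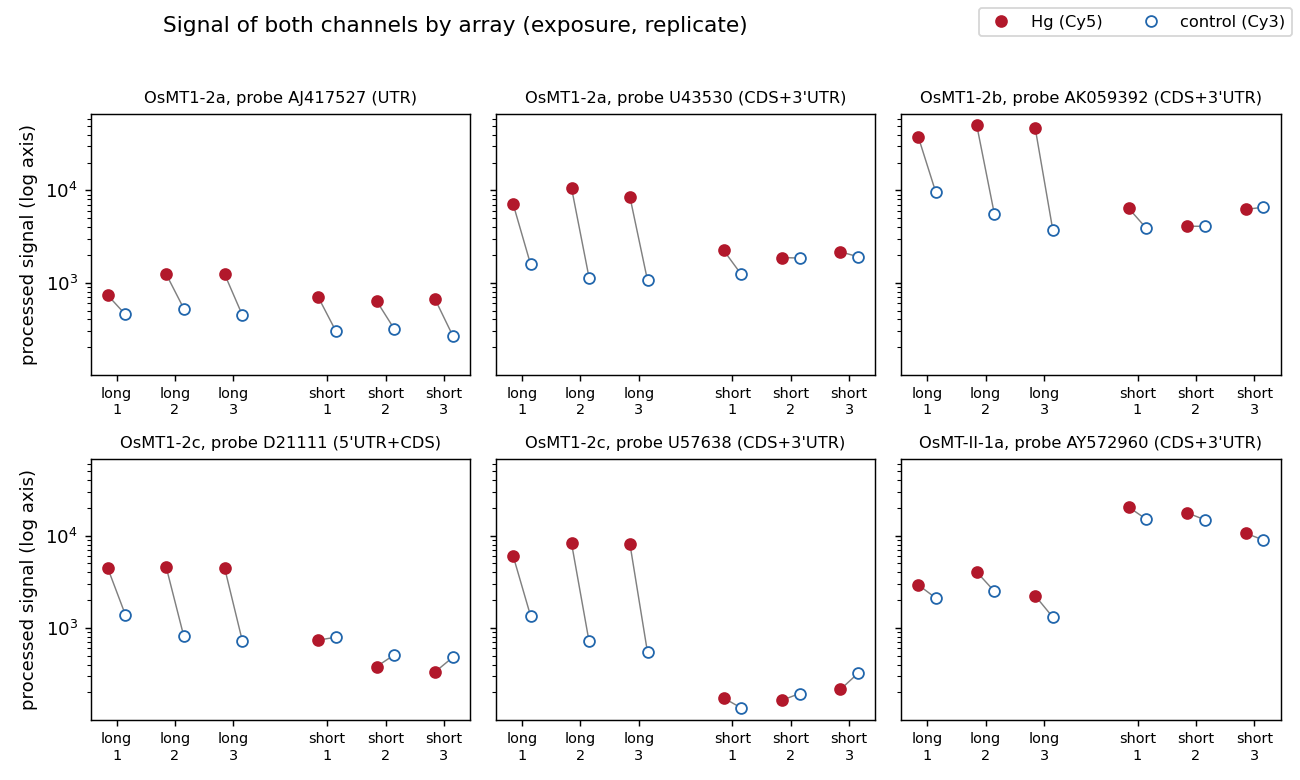
Processed signal (log axis) of the Hg channel (filled) and the control channel (open) on each array for both OsMT1-2a probes, the brightest probes of OsMT1-2b, OsMT1-2c and OsMT-II-1a, and 1 further OsMT1-2c probe, with a line joining the channels of an array. The Hg signals of OsMT1-2b reach 37915 to 50591 on the long-term arrays, and both channels of OsMT-II-1a are lower there than on the short-term arrays.

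Counted by probe, all 15 type 2 probes were called up at long-term exposure, where 8.38% of all probes tested were called up and 5.7% down. At short-term exposure 1 of the 15, the UTR probe of OsMT1-2a, was called up, where 11.1% of all probes were called up and 7.63% down. Long minus short was called higher for 14 of 15, against 9.27% of all probes called higher and 10% called lower, with the UTR probe of OsMT1-2a as the exception. Of the other genes' probes, 8 passed the signal minimum and 0 of them were called in any of the 3 contrasts in limma. Probes of 1 gene share a transcript, and cross-hybridisation between the related type 2 transcripts was not tested. In all, 23 of the 25 probes passed the signal minimum.

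**Figure D3:**
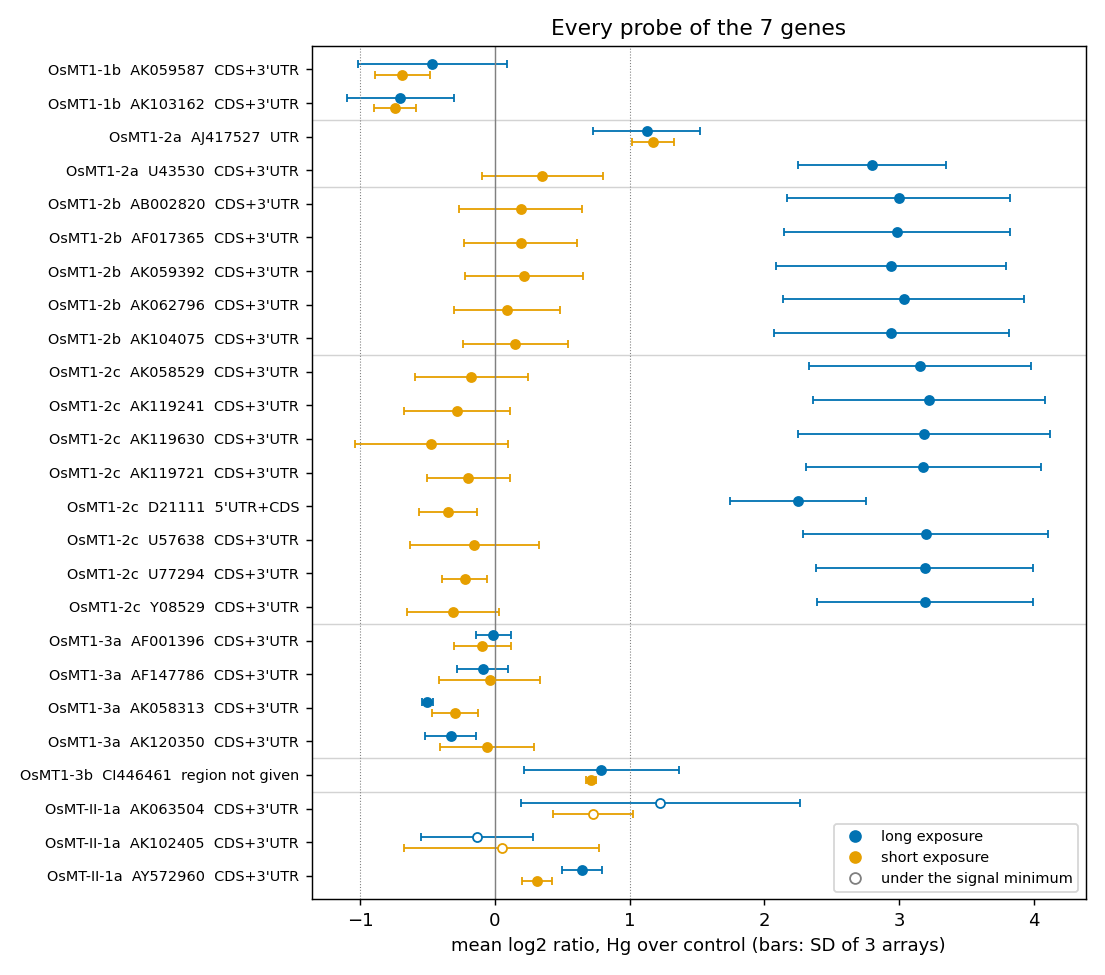
Mean log2 ratio of Hg over control (horizontal axis, bars are the SD of 3 arrays) for all 25 probes of the 7 genes at long-term and short-term exposure, with the part of the transcript named by the array design. All 15 type 2 probes lie above 1 at long-term exposure, and the 2 open-symbol probes of OsMT-II-1a were under the signal minimum.

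By the brightest probes, OsMT1-1b, the type 1 gene, was the only gene of the 7 with a log2 ratio under 0 on all 6 arrays. The share of all genes under 0 on all 6 arrays was not counted. The median over all genes was itself under 0 on each array, at -0.13 to -0.04. Type 1 genes are a class of plant MTs often transcribed in roots. The log2 ratios of its brightest probe were -1.10, -0.10 and -0.19 on the long-term arrays, against -0.46, -0.73 and -0.86 on the short-term arrays, and the exposures overlapped. The means were -0.46 ± 0.55 at long-term exposure (SD, n = 3 arrays, adjusted p = 0.0802 in limma) and -0.69 ± 0.20 at short-term exposure (SD, n = 3 arrays, adjusted p = 0.0201 in limma). Both were under 2-fold. Signals on the long-term arrays were 7528, 7923 and 6633 in the Hg channel and 16157, 8521 and 7549 in the control channel, and the control signal of long-term replicate 1 was the highest. Without that replicate the long-term mean was -0.15 (adjusted p = 0.32 in limma), and long minus short was 0.54 (adjusted p = 0.0336), against 0.22 (adjusted p = 0.539) with it, all under 2-fold. On the short-term arrays the signals were 4689, 4116 and 3645 in the Hg channel and 6464, 6841 and 6638 in the control channel. The second probe gave means of -0.70 ± 0.40 at long-term exposure (SD, n = 3 arrays, adjusted p = 0.00633 over all probes in limma) and -0.74 ± 0.15 at short-term exposure (SD, n = 3 arrays, adjusted p = 0.00437), again under 2-fold.

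Neither type 3 gene reached 2-fold at either exposure. Plant type 3 MTs are known from leaves and ripening fruits. OsMT1-3a had log2 ratios of -0.45, -0.42 and -0.11 on the long-term arrays, against 0.31, -0.39 and -0.09 on the short-term arrays. Its means were -0.33 ± 0.19 at long-term exposure (SD, n = 3 arrays, adjusted p = 0.0791 in limma), with a 95% confidence interval of -0.67 to 0.01, and -0.06 ± 0.35 at short-term exposure (SD, n = 3 arrays, adjusted p = 0.74 in limma), with an interval of -0.39 to 0.28. The signals were 504, 656 and 835 in the Hg channel and 689, 878 and 903 in the control channel of the long-term arrays. Those of the short-term arrays were 748, 723 and 549 in the Hg channel and 603, 945 and 585 in the control channel. Its 4 probes had means of -0.50 to -0.01 at long-term exposure and -0.30 to -0.04 at short-term exposure. The lowest mean at both exposures came from a faint probe with a signal of at most 104, which was under 0 on all 6 arrays. Its adjusted p was 0.00219 at long-term and 0.0161 at short-term exposure (over all probes in limma), both under 2-fold.

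OsMT1-3b was measured close to the background. Its only probe, designed on an expressed sequence tag, reached a signal of at most 108, just over the minimum of 100. The log2 ratios were 1.31, 0.89 and 0.17 on the long-term arrays, against 0.72, 0.75 and 0.67 on the short-term arrays, so the long-term arrays spread on both sides of the short-term arrays. The means were 0.79 ± 0.58 at long-term exposure (SD, n = 3 arrays, 1.73-fold, adjusted p = 0.012 in limma) and 0.71 ± 0.04 at short-term exposure (SD, n = 3 arrays, 1.64-fold, adjusted p = 0.0161 in limma). The SE in limma was 0.19 at both exposures, since the fit pools their spread. Without long-term replicate 3 the long-term mean was 1.099 and passed both thresholds (adjusted p = 0.0026 in limma). Signals on the long-term arrays were 78.1, 78.3 and 70.5 in the Hg channel and 31.6, 42.2 and 62.7 in the control channel. On the short-term arrays they were 108, 73.2 and 71.3 in the Hg channel and 65.6, 43.6 and 44.8 in the control channel, where the control spot was well above background on 2 of 3 arrays. With another background correction (normexp) the means were 0.34 at long-term and 0.36 at short-term exposure.

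OsMT-II-1a, the class II gene, differed little between Hg and control on each array while its level in both channels differed widely between exposures. Its brightest probe had log2 ratios of 0.48, 0.69 and 0.77 on the long-term arrays, against 0.44, 0.25 and 0.24 on the short-term arrays, all above 0. The means were 0.64 ± 0.15 at long-term exposure (SD, n = 3 arrays, SE 0.08, 1.56-fold, adjusted p = 0.000987 in limma) and 0.31 ± 0.11 at short-term exposure (SD, n = 3 arrays, 1.24-fold, adjusted p = 0.0153 in limma). Both stayed under 2-fold. The signals were 2924, 4026 and 2224 in the Hg channel and 2100.4, 2497 and 1307 in the control channel of the long-term arrays. Those of the short-term arrays were 20313, 17643 and 10596 in the Hg channel and 15006, 14809 and 8963 in the control channel. After quantile normalisation between arrays, the control level differed by -3.06 (log2) between long-term and short-term exposure, which is above only 0.492% of all probes tested, and the Hg level by -2.73. Over all genes tested this difference had a median of -0.05 in the control channel, with 5% of genes below -1.37 and 5% above 0.95. Seedling time, slide and the exposure's own control cannot be told apart in this difference. The other 2 probes of this gene stayed at or under signals of 28.5 and 20.4 on all arrays and did not pass the signal minimum, so the probes of OsMT-II-1a disagree on whether the transcript was measured at all.

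Replicate 1 stood at an edge of its exposure for most of the MT genes, and often did so over all genes. Long-term replicate 1 was the lowest of its 3 arrays for 6 of the 7 genes, with OsMT1-3b as the exception. Over all genes it was the lowest for 36.1% and the highest for 44.4%. Short-term replicate 1, alone on its slide, was the highest of its 3 arrays for 6 of the 7 genes. Over all genes it was the highest for 32.8% and the lowest for 39.1%. For OsMT1-2b the short-term mean of the 2 arrays on the other slide was -0.039, against 0.72 on the slide of replicate 1, and for OsMT1-3a these values were -0.24 and 0.31. The part of the slide in these short-term values was not tested.

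The 4 MT genes on chromosomes 11 and 12, compared with the same controls on the same arrays, comprise another type 1 gene, OsMT1-1a, and the type 4 genes. Of these 3 were upregulated at long-term exposure and 1, OsMT1-4a, at short-term exposure, against 3 and 0 of the 7 genes elsewhere. Over all genes tested the shares called up were 8.98% and 11.6%. Long minus short was called higher for 3 of the 4, the type 4 genes, at 2.67 to 3.44. The type 2 genes thus shared this difference with the type 4 genes, and 9.21% of all genes tested were called so. Their median log2 ratio was 3.00 at long-term exposure, with a range of -0.06 to 5.42, and -0.05 at short-term exposure, with a range of -0.84 to 2.04. The type 1 genes of both sets had the lowest mean of their set at long-term exposure, although OsMT1-1b and OsMT1-3a, next above it, overlapped.

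For each of the 7 genes the tested genes nearest in log2 ratios were found by the root mean square difference over the 6 arrays. The nearest genes were Os03g0639300 (0.24) and Os11g0559600 (0.26) for OsMT1-2a, Os08g0478000 (0.20) and Os07g0416600 (0.23) for OsMT1-2b, and Os09g0467400 (0.13) and Os05g0550300 (0.21) for OsMT1-2c. For OsMT1-1b they were Os08g0446400 (0.09) and Os04g0497300 (0.19), for OsMT1-3a Os03g0136600 (0.13) and Os07g0299800 (0.14), for OsMT1-3b Os06g0111200 (0.19) and Os10g0443300 (0.20), and for OsMT-II-1a Os10g0464500 (0.05) and Os08g0111800 (0.06). None of these 14 is another MT gene, and for no type 2 gene was another type 2 gene among its nearest 2. The root mean square difference counts level as well as pattern, and OsMT1-2c was represented by its 5′ UTR probe. The log2 ratios of the type 2 genes correlated with each other at 0.984 to 0.989 over the 6 arrays. OsMT-II-1a correlated with them at 0.941 to 0.980. These correlations span both exposures and thus include the difference between them.

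**Figure D4:**
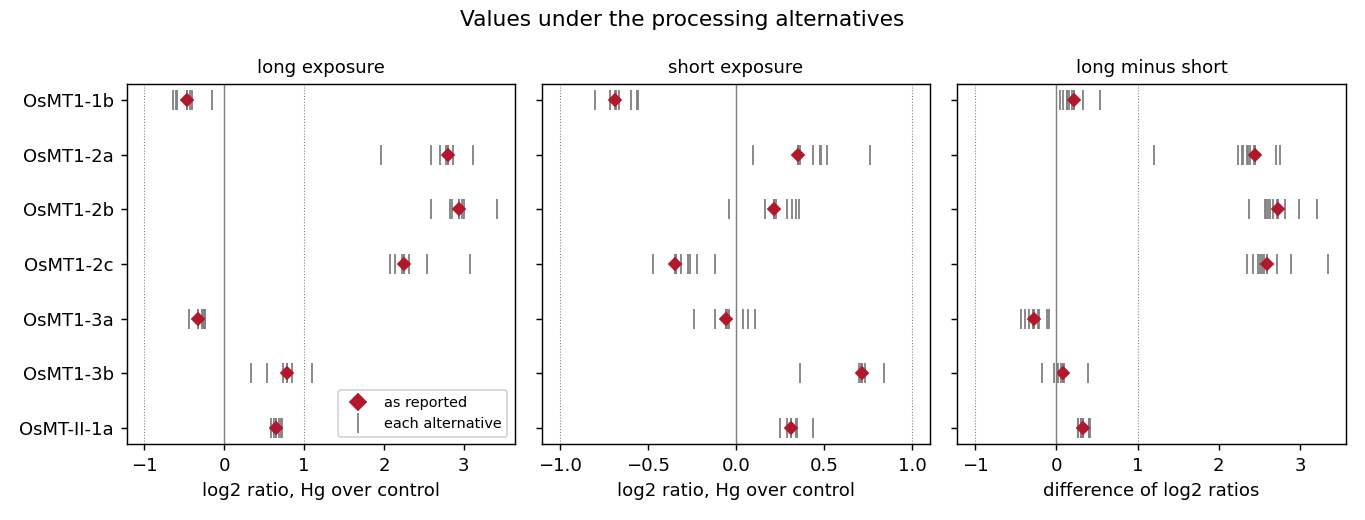
Log2 ratio at long-term and short-term exposure, and long minus short, for each of the 7 genes as reported (diamonds) and under each processing alternative (ticks). The long-term values of OsMT1-2a, OsMT1-2b and OsMT1-2c stay between 1.96 and 3.42, and the short-term values of OsMT1-2b and OsMT1-3a lie on both sides of 0.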

How the data were processed

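The authors deposited a scanner file for each 2-colour 4×44K array and 1 value table. Intensity columns of the deposited scanner files hold the signals of both channels from Agilent Feature Extraction 10.7.1.1, as raw medians and as processed signals corrected for background and dye. Their log10 ratio column is Cy5 (Hg) over Cy3 (control), normalised for dye within the array per the file headers. The value table, deposited as log2, matched the log2 ratio of the processed signals within 0.01 for at least 99.98% of probes, and served only as an alternative.

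Log10 ratios were multiplied by 3.32 to give log2. After removal of control and outlier spots, spots were averaged per probe. A signal of at least 100 in either channel on any of the 6 arrays was required, which left 31325 probes and 21843 genes, each represented by its brightest probe. With limma 3.58.1 (R 4.3.3), 1 coefficient per exposure was fitted over 6 arrays, and p-values were adjusted by Benjamini-Hochberg over all genes tested, or over all probes tested where single probes are given. Calls needed an adjusted p under 0.05 and a 2-fold difference. The smaller numbers tested in a contrast reflect genes whose brightest probe was an outlier on all arrays of an exposure. The script was tested on simulated data. The number of arrays limits the precision. In limma, p-values set an effect against the spread of arrays within exposures. That spread was pooled over both exposures and drawn towards the spread of all genes. The methods' t-test used only the 3 arrays of the exposure tested. Channel levels were compared between exposures only after quantile normalisation of the average intensities between arrays (Aquantile), as a description. The normexp alternative (offset 50, then loess) used median signals, since the files used here give no mean signal. The alternatives also varied the centring, the filters, the probe rule, the test, the blocks and the arrays kept.

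Named are all MT loci of the study's list outside chromosomes 11 and 12, with every probe whose name starts with the locus. Also given are counts and ranges for the 4 other MT loci, and for each gene the 2 genes nearest in log2 ratios. These genes, lists and tests were chosen with earlier results of these data known. Locus names and transcript regions are those of the array design, and 0 of the 7 loci matched the RefSeq gene table, so no coordinates or sequences are given.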

Additional observations from a re-analysis of the deposited data

Results flagged for a closer look

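The response to Hg differed between the exposures in the 3 type 2 genes, by the test of the difference itself in limma. Long minus short was 2.45 (log2) for OsMT1-2a, with an adjusted p of 0.00184, 2.73 for OsMT1-2b, with an adjusted p of 0.00347, and 2.60 for OsMT1-2c, with an adjusted p of 0.000726. All 3 long-term arrays were above all 3 short-term arrays for each gene by its brightest probe, and the share of all genes with such a gap was not counted. The UTR probe of OsMT1-2a did not show this difference, at -0.05 (adjusted p = 0.871 over all probes). The long-term arrays lay on a slide of their own, so slide and exposure cannot be told apart. Dixon's test for a single array that stands apart was not run, since it was set for groups of at least 4.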

How the results depend on the processing

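The values were recomputed under 21 other settings. Fitting each exposure alone, the methods' t-test and the values within each slide give no estimate of long minus short, so that contrast was not recomputed under them. Of the counts of MT genes called in each contrast and direction, 106 values under the alternatives stayed within 1.5 times the reported count, 3 were higher and 1 lower. Of the single genes' values 379 counted as unchanged, 6 gained a call, 2 lost it, 6 moved and 6 reversed in sign. Unchanged means the same direction and side of the threshold. Values within a slide have no test, and counted as unchanged if they differed from the reported value by less than the short-term SD, otherwise as moved. The unchanged values thus include -0.039 for OsMT1-2b on the slide of short-term replicates 2 and 3, opposite in sign to the reported 0.21. Over the alternatives that gave a value, the long-term log2 ratio was 1.96 to 3.11 for OsMT1-2a, 2.59 to 3.42 for OsMT1-2b and 2.08 to 3.07 for OsMT1-2c, and long minus short was 1.20 to 2.76, 2.37 to 3.20 and 2.35 to 3.34. The lowest OsMT1-2a values came from the mean of its 2 probes. Without the 2-fold threshold, 5 genes were called up at long-term exposure, where 28.6% of all genes were up and 35.3% down, and 2 up and 1 down at short-term exposure, where 27.7% were up and 40.9% down. The methods' t-test called 1 gene up at long-term exposure, since adjusted p was 0.0486 for OsMT1-2a, 0.0632 for OsMT1-2b and 0.0521 for OsMT1-2c, and over all genes it called 914 up and 813 down at long-term and 1029 up and 565 down at short-term exposure, against 1962, 1315, 2529 and 1763 in limma. Normexp with loess called 1402, 532, 2089 and 442, and moved the short-term median of all genes to 0.00, against -0.13. Reversed in sign at short-term exposure were OsMT1-2b without replicate 1 (-0.039, up to 0.36 without replicate 3) and OsMT1-3a with median-centred arrays (0.071), with normexp and loess (0.038) and without replicate 2 (0.11, down to -0.24 without replicate 1). Long minus short of OsMT1-3b was -0.023 with normexp and loess and -0.18 without long-term replicate 1, up to 0.39 without long-term replicate 3. None of these reversed values passed the thresholds, and the cause was not tested.

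With the replicate number as a block, the counts of MT genes called were the same in all 3 contrasts, and long minus short had adjusted p of 0.0145 for OsMT1-2a, 0.0192 for OsMT1-2b and 0.0074 for OsMT1-2c in limma. Over all genes the block gave 1947 up and 1311 down at long-term and 2517 up and 1761 down at short-term exposure. The deviations of same-numbered arrays correlated at -0.23, 0.02 and -0.18, so the numbers were not taken as pairs.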
